A study of Mus musculus with 9 samples.

Results

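Aminoacyl-tRNA synthetases join each amino acid to its tRNA and so set which amino acid a codon is read as. Nuclear genes encode a set of these enzymes for the cytosol and another for the mitochondrial matrix, and most amino acids have a separate gene for each compartment. Several cytosolic synthetases are held in a multisynthetase complex, and many of the cytosolic genes are known targets of ATF4, the transcription factor of the amino acid response. The 37 genes described here were taken by symbol from this enzyme family, with no threshold on a measured value, and the high Lars2 count was known when the family was chosen. They make up 37 of the 20467 genes with a symbol in the deposited table, and all 37 were among the 9567 genes with enough reads to be tested. By function 19 encode cytosolic enzymes, 16 encode mitochondrial enzymes, and 2 (Gars and Kars, for glycine and lysine) encode the enzyme of both compartments.

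RNA was sequenced from RAW264.7 cells, a mouse macrophage line, all of which had been given lipopolysaccharide (LPS) at 100 ng/ml for 2 h. Roquin IP comprised 3 libraries of RNA recovered with protein A/G beads that carried rabbit polyclonal anti-Roquin antibodies, control IP comprised 3 libraries of RNA held by beads alone, and the input comprised 3 libraries of RNA taken before the immunoprecipitation (IP). The replicates are given as biological by the series' design text. Roquin binds stem-loops in mRNAs, known as constitutive decay elements (CDEs), and directs those mRNAs to decay, so the comparisons of Roquin IP with control IP and with the input ask which mRNAs the antibodies brought down. No Roquin-deficient cells were among the groups, and the control beads carried no antibody, so RNA that the antibodies held in another way cannot be told apart from RNA bound to Roquin.

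The Roquin IP libraries held 3547517 to 12975767 reads, the control IP libraries 2929537 to 8466096 and the input libraries 1799390 to 2122288. Levels are given as CPM, counts per 1e+06 reads of a library size scaled by its TMM factor. In counts, 1 CPM was worth 2.38 to 10.3 in Roquin IP, 3.28 to 11.6 in the control IPs and 2.02 to 2.53 in input libraries. Macrophage markers summed to 1180 to 1940 CPM in Roquin IP, 952 to 1490 in the control IPs and 1100 to 1640 in input libraries. Markers of T cells, B cells, fibroblasts, epithelial and endothelial cells held 6, 12, 16, 1 and 24 counts in all 9 libraries together, and Cd3e and Epcam were at 0.

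Lars2, the gene of the leucyl-tRNA synthetase of mitochondria, was counted at a level far from every other synthetase gene. The table held 849524, 1948786 and 2045877 Lars2 reads in Roquin IP, against 1215365, 1491285 and 2417207 in control IP and 830293, 667654 and 738047 in input. These were 98.83% to 99.46% of all reads of the 37 genes in each library. The other 36 genes together held 0.136% ± 0.011 of all reads in Roquin IP (SD, n = 3 in each group), with means of 0.290% ± 0.00608 for control IP and 0.350% ± 0.0365 for the input. Per kilobase of its GENCODE M21 transcript, Lars2 stood at 82900 CPM per kb in the input, 740 times the next gene, Nars, and the median of the other 15 mitochondrial genes was 3.32 CPM per kb.

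Lars2 lies at chr9:123366927-123462666 on the plus strand of GRCm38, the build of the annotation used here. Its annotated transcript has 3894 bases, of which the last 986 are the 3′ untranslated region (3′ UTR). The mouse Lars2 3′ UTR is known to hold sequence derived from 28S ribosomal RNA, and no ribosomal RNA sequence was among the references used here. Of the transcripts searched, AA474408, an unclassified locus on chromosome 7, shared a stretch of 97 bases at 94.8% identity with the Lars2 3′ UTR. Gm15564, an antisense noncoding transcript on chromosome 16, shared 72 bases at 98.6% identity. The stretches overlap in a run of 36 bases that is identical in all 3 transcripts, and neither of the other loci has a row in the table under that symbol. The following 30 bases of that run, at chr9:123462051-123462080 on the plus strand, are shown because reads from any transcript that holds them could be placed in Lars2, and the capitals mark that they are shared throughout.
Lars2 3′ UTR: TTCACCAAGCGTTGGATTGTTCACCCACTA

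The table gives 1 count per gene and no read positions, so how many Lars2 reads came from this stretch was not tested. None of the 11 ribosomal and other abundant noncoding RNAs looked for, among them Rn18s, Rn28s1 and Rn45s, had a row of its own. The Lars2 row is therefore reported as the count assigned to that symbol and not as the level of the synthetase mRNA.

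**Figure D1:**
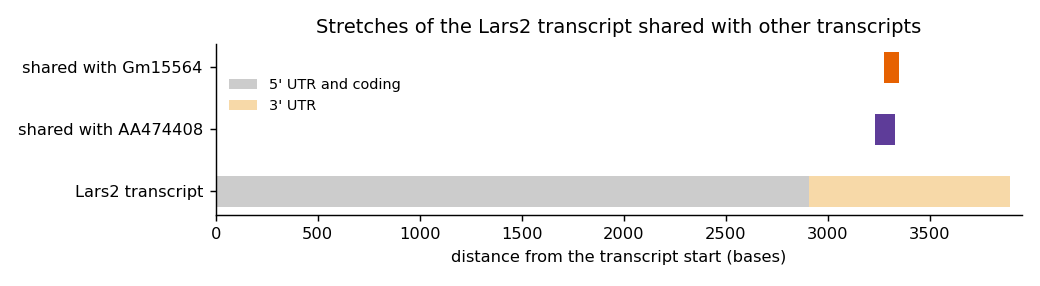
The annotated Lars2 transcript (bottom bar, distance in bases from its start) with the longest stretch shared with AA474408 and with Gm15564 above it. Both stretches lie in the 986-base 3′ UTR and overlap each other.

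The Lars2 share of all reads was 24.0%, 15.0% and 15.9% in Roquin IP, against 41.5%, 35.7% and 28.6% in control IP and 39.1%, 32.5% and 41.0% in input. Exact binomial 95% intervals were within 0.08 percentage points of each share and cover counting error only. All Roquin IP libraries were below all control IP and input libraries, while the control IP and input ranges overlapped. Tnf alone held 20.7%, 27.2% and 17.6% of the reads in Roquin IP and at most 0.516% elsewhere. Outside the 360 genes called higher in Roquin IP over control IP, Lars2 held 44.1%, 34.2% and 29.7% of the remaining reads in Roquin IP, against 42.8%, 36.8% and 29.5% in control IP and 40.6%, 33.6% and 42.6% in input. On that base the 3 groups overlapped. The 360 genes were chosen in these same libraries and held 45.7% to 56.1% of the reads in Roquin IP, against 2.99% to 3.82% elsewhere. Leaving them out therefore had to raise the Lars2 share mainly in Roquin IP. In the edgeR fit, whose TMM factors allow for a few abundant transcripts, the log2 fold change of Lars2 was -0.12 ± 0.39 (SE) in Roquin IP over control IP (adjusted p = 0.938), with a 95% interval from -0.95 to 0.71. Over the input it was -0.27 ± 0.39 in Roquin IP (adjusted p = 0.725) and -0.15 ± 0.39 in control IP (adjusted p = 0.870). Scaling by library size alone gave Lars2 log2 fold changes of -0.95 in Roquin IP over control IP (adjusted p = 0.0299) and -1.04 over the input (adjusted p = 0.0213), beside medians of all genes of -0.96 and -0.76.

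**Figure D2:**
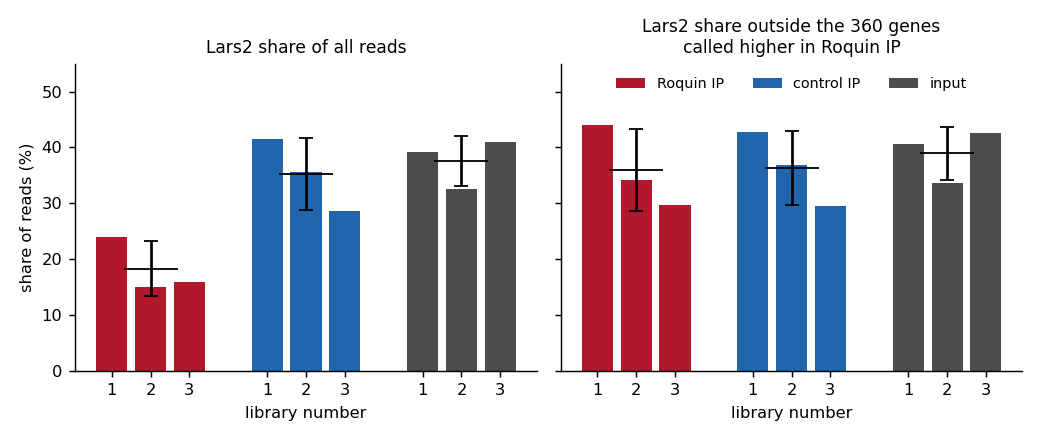
Lars2 share of reads in % for each library, as a share of all reads (left) and of reads outside the 360 genes called higher in Roquin IP over control IP (right). Bars are single libraries, and the black mark and whiskers are the mean ± SD of 3. Roquin IP bars are lowest on the left (15.0% to 24.0%) and overlap the other groups on the right.

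Across the 9 libraries, the rows whose share of reads varied most like that of Lars2 were Mef2a, Sap130, Elmo1, Srgap2 and Hsp90ab1, with Pearson's r of log2 share from 0.963 to 0.975 among 9659 genes with a mean of at least 10 counts. Among the synthetases Iars was most alike (r = 0.945, rank 17) and Aars2 least (r = -0.822). These values describe 9 libraries in 3 groups that share the Roquin IP composition. The genomic neighbours of Lars2 with enough reads, Limd1, Zdhhc3 and Exosc7, did not pass the test in any comparison, with log2 fold changes from -0.56 to -0.10 in Roquin IP over control IP. With the replicate number as a block Limd1 was higher than the input in Roquin IP (0.70, adjusted p = 0.0285) and in control IP (0.83, adjusted p = 0.0203).

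Leaving Lars2 aside, the cytosolic enzymes were counted at higher levels than the mitochondrial ones. In the input the 19 cytosolic genes had a median of 35.7 CPM per kb (range 2.80 to 112) and the 15 mitochondrial genes had 3.32 (range 0.802 to 9.42). Nars (asparagine) led with 112 ± 16.3 CPM per kb, followed by Gars with 93.0 ± 14.8, Rars (arginine) with 86.1 ± 24.1 and Eprs (glutamate and proline) with 67.0 ± 10.9 (SD, n = 3). Neighbours in that order did not differ beyond their spread. The lowest were Pars2 at 0.802 ± 0.814, Mars2 at 0.871 ± 0.464, Aars2 at 1.37 ± 0.684, Cars2 at 2.15 ± 1.56 and Hars2 at 2.29 ± 1.86 CPM per kb. Tarsl2, a second cytosolic threonyl-tRNA synthetase gene, stood at 2.80 ± 0.974 CPM per kb and was the only cytosolic gene within the mitochondrial range. Median transcript lengths were close, at 2962 bases for the cytosolic and 3228 for the mitochondrial genes.

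**Figure D3:**
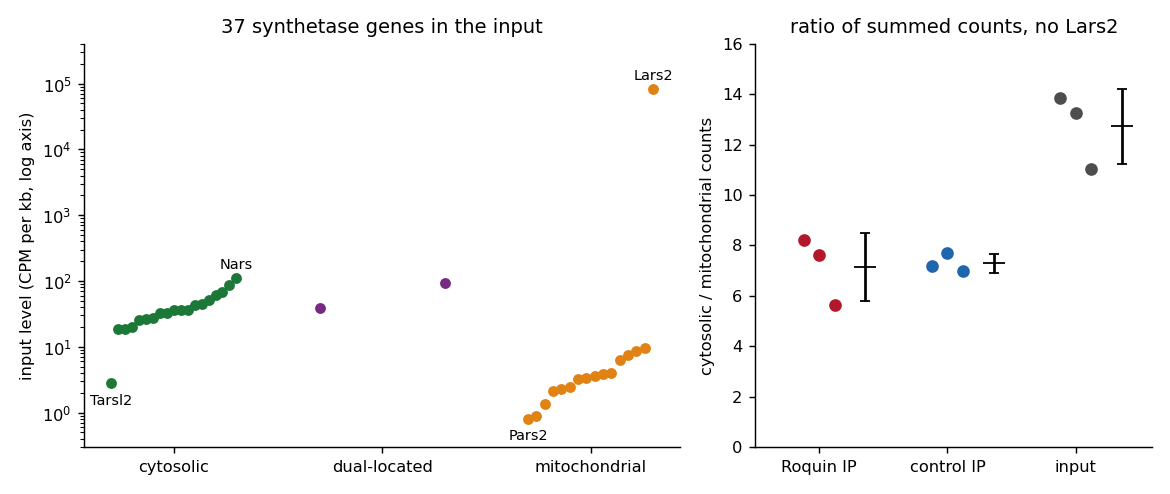
Left, input level of each of the 37 genes in CPM per kb of transcript (log axis) by compartment, with Lars2 near 82900 and all other genes at 112 or below. Right, counts of the 19 cytosolic genes over those of 15 mitochondrial genes (without Lars2, Gars and Kars) in each library, with the mean ± SD of 3 beside the points; Roquin IP and control IP lie below the input.

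Aars2, the mitochondrial alanyl-tRNA synthetase, was the one synthetase mRNA that rose in Roquin IP. Aars2 had 67, 255 and 348 counts in Roquin IP, against 14, 27 and 47 in control IP and 11, 6 and 14 in input. As levels these were 28.1, 32.2 and 33.7 CPM in Roquin IP, against 4.26, 5.29 and 4.04 in control IP and 4.48, 2.37 and 6.94 in input. Every Roquin IP library was above every other library, and control IP and input overlapped. Against control IP the fold was 6.92 (log2 fold change 2.79 ± 0.41 SE, adjusted p = 0.000508, edgeR quasi-likelihood test with Benjamini-Hochberg adjustment over all genes tested). Against the input it was 6.91 (log2 fold change 2.79 ± 0.43, adjusted p = 0.000825). Both comparisons use the same Roquin IP libraries. In control IP over the input the log2 fold change of Aars2 was -0.00 ± 0.44 (adjusted p = 0.997), with an interval from -0.96 to 0.95. The authors' deposited table gave Aars2 a linear ratio of 7.01 and a p-value of 0.000178, and it gave the other 36 synthetases p-values of 1.

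Aars2 was 1 of 37 synthetases called higher over control IP, a share of 2.70% beside 3.76% of all genes tested, so the family as a whole was not above the background. No synthetase was called lower, and neither was any other gene (0 of 9567, 0%), with 204 genes (2.13%) lower at an unadjusted p under 0.05 in edgeR and 6 genes called lower by DESeq2. Under library size alone the split of calls was 257 higher and 3708 lower (38.8% of all genes). Of the synthetases 1 was higher and 24 lower (64.9%), with the median of all genes at -0.96 in place of -0.12. Relative to that median the log2 fold change of Aars2 was 2.91 with TMM factors and 2.92 with library size alone.

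The Aars2 gene spans chr17:45506841-45520843 on the plus strand (GRCm38), and no annotated gene overlaps it. Its neighbour Nfkbie, which encodes an inhibitor of NF-kappaB, had a log2 fold change of -0.71 ± 0.42 over control IP (adjusted p = 0.654), and Slc35b2 had 0.41 ± 0.66 (adjusted p = 0.888). The other neighbours had few or no reads, with Tcte1 at 1 count in all libraries and Tmem151b at 0. The authors' deposited table predicted no CDE in any of the 37 synthetases, although 188 genes carried a CDE class. A search of the annotated 3′ UTRs, on the transcript strand, used the letters TTCNNNGAA, which form the closing stem around a loop of 3 bases. These letters were found in 12 of 37 synthetases (32.4%), against 36.7% of the 8728 tested genes with a 3′ UTR. With the loop held to pyrimidine, purine and pyrimidine, they were found in Tars only (2.70%, against 6.04%), and the median 3′ UTR was 527 bases in the synthetases and 1206 in all tested genes. The match in Aars2, the gene that rose, and the stricter match in Tars are shown with 10 bases on either side, and the capitals mark the matched letters.
Aars2 3′ UTR, chr17:45520737-45520745, plus strand: gcacttgttgTTCATAGAAaggacccagg
Tars 3′ UTR, chr15:11382876-11382884, minus strand: tttaagacatTTCCGTGAAgccagtgttt

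The Aars2 match does not have the pyrimidine-purine-pyrimidine loop. Tars, the gene with the stricter match, had a log2 fold change of -0.31 ± 0.29 over control IP and did not pass the test (adjusted p = 0.787). Stem pairing beyond these letters was not scored, and a match is not a binding site.

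The next highest synthetase over control IP was Tarsl2. It had 42, 91 and 153 counts in Roquin IP, against 17, 41 and 82 in control IP and 15, 31 and 17 in input. Its levels of 17.6, 11.5 and 14.8 CPM in Roquin IP were above the 5.18, 8.03 and 7.05 CPM of control IP, and overlapped the 6.11, 12.3 and 8.43 CPM of the input. The log2 fold change over control IP was 1.09 ± 0.41 and did not pass the threshold (adjusted p = 0.298). The 3′ end of Tarsl2 overlaps Tm2d3 on the same strand by 923 bases of the genome, and their transcripts share 122 exonic bases. Tm2d3 had 231, 1598 and 1444 counts in Roquin IP, against 0, 65 and 212 in control IP and 49, 23 and 17 in input, and over control IP it rose by 3.75 ± 0.75 on the log2 scale (adjusted p = 0.00717). How many Tarsl2 reads lie in the shared bases was not tested.

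**Figure D4:**
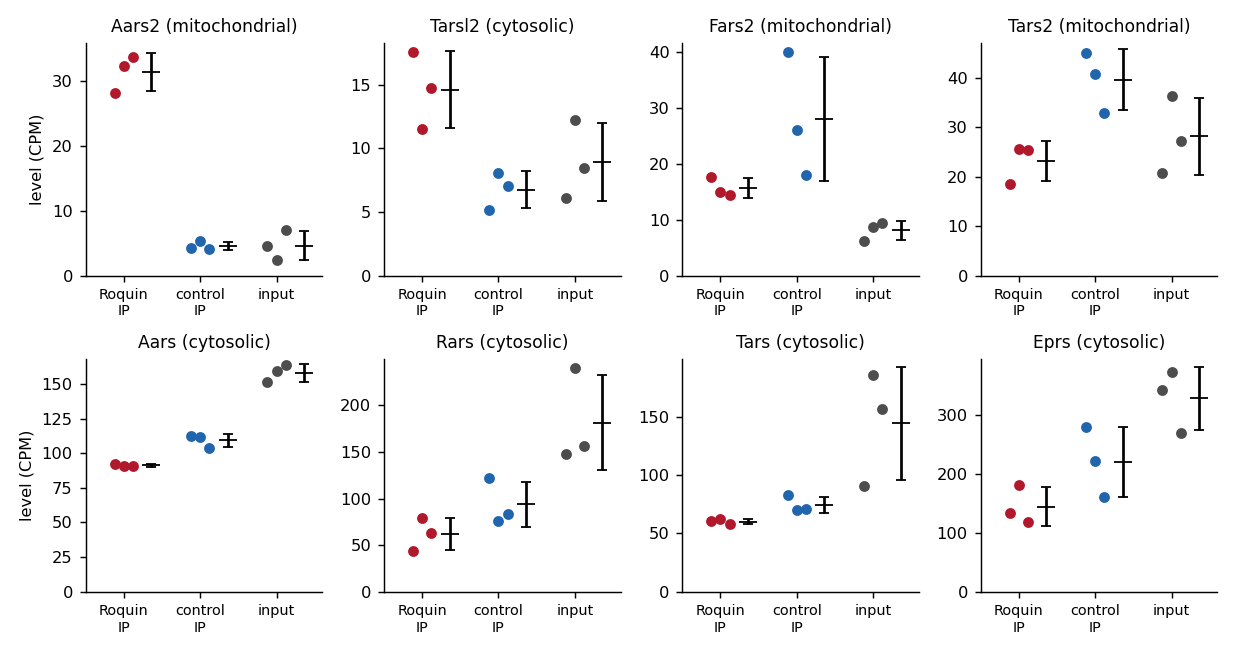
Levels in CPM of 8 synthetase genes in the 9 libraries. Points are single libraries, with the mean ± SD of 3 beside them, and each panel starts at 0. Aars2 stands at 28.1 to 33.7 CPM in Roquin IP and at 6.94 or less elsewhere, while Rars, Tars and Eprs are highest in the input.

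Of the remaining synthetases, Qars (log2 fold change 0.25 ± 0.45, adjusted p = 0.899) and Nars2 (0.17 ± 0.35, adjusted p = 0.913) were next over control IP. The lowest were Pars2 at -1.07 ± 0.77 (adjusted p = 0.722), Vars2 at -0.91 ± 0.45 (adjusted p = 0.553), Fars2 at -0.83 ± 0.36 (adjusted p = 0.431) and Tars2 at -0.76 ± 0.31 (adjusted p = 0.377), all mitochondrial. Tars2 had 18.5, 25.5 and 25.5 CPM in Roquin IP, against 45.1, 40.8 and 32.9 in control IP. Those 2 sets of libraries did not overlap, although the call was not made. In all, 8 synthetases had every Roquin IP library below every control IP library (21.6%, against 8.00% of all genes tested), namely Aars, Tars, Mars, Rars2, Ears2, Tars2, Fars2 and Vars2. Aars2 and Tarsl2 had every Roquin IP library above (5.41%, against 10.7%). The log2 fold change was negative in 32 of 37 synthetases (86.5%, against 60.2% of all genes tested). The medians were -0.31 for the cytosolic, -0.30 for the mitochondrial (-0.33 without Lars2) and -0.12 for all genes. With Lars2 included, the mitochondrial median moved to -0.60 without Roquin IP 3.

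Aars, the cytosolic alanyl-tRNA synthetase and partner of Aars2, varied least among replicates of the 37 (pooled SD of log2 CPM 0.0513, against a median of 0.373 in the family). It had 92.3, 90.4 and 90.8 CPM in Roquin IP, against 112, 112 and 104 in control IP and 151, 159 and 164 in input. The 3 groups did not overlap. The log2 fold changes were -0.26 ± 0.23 in Roquin IP over control IP (adjusted p = 0.773) and -0.79 ± 0.24 over the input (adjusted p = 0.0525), or 0.0101 with the replicate number as a block. The last 1326 bases of the Aars transcript are also annotated as Exosc6 on the same strand, so reads there could be counted for either gene.

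Compared with the input, 5 of the 19 cytosolic synthetase mRNAs fell in Roquin IP, namely Rars, Tars, Eprs, Lars and Nars. They were 13.5% of the 37 genes, against 2.79% of all genes tested called lower, and 1, Aars2, was called higher (2.70%, against 5.45%). With the replicate number as a block, 9 were lower (24.3%, against 8.04%), again all cytosolic, with Dars, Farsb, Aars and Sars added. Under library size alone the split of all calls was 259 higher and 2668 lower, in place of 521 and 267, and 22 synthetases were lower (59.5%, against 27.9%). DESeq2 gave 712 higher and 542 lower, with 7 synthetases lower (18.9%, against 5.67%). Rars, Tars, Eprs, Lars and Nars did not pass the test over control IP (adjusted p from 0.520 to 0.787). In control IP over the input their log2 fold changes ran from -0.96 to -0.58, with none called in the main fit.

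Rars, the arginyl enzyme of the multisynthetase complex, fell most. Rars had 44.0, 78.9 and 63.1 CPM in Roquin IP, against 148, 240 and 157 in the input, and control IP lay between the means at 122, 76.0 and 83.7. Its log2 fold change in Roquin IP over the input was -1.54 ± 0.32 (adjusted p = 0.00846). Tars (threonine) had 60.4, 61.9 and 58.1 CPM in Roquin IP, against 90.8, 186 and 156 in the input, a log2 fold change of -1.26 ± 0.29 (adjusted p = 0.0160). Eprs, the joined glutamyl and prolyl enzyme and another member of the complex, had 134, 181 and 119 CPM in Roquin IP, against 342, 374 and 270 in the input. For Rars, Tars and Eprs, the Roquin IP libraries did not overlap those of the input. The log2 fold change of Eprs was -1.18 ± 0.29 (adjusted p = 0.0237).

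Lars, the cytosolic leucyl enzyme and partner of Lars2, had 69.2, 57.1 and 49.4 CPM in Roquin IP, against 134, 147 and 110 in the input (log2 fold change -1.16 ± 0.28, adjusted p = 0.0212). Nars had 142, 189 and 144 CPM in Roquin IP, against 331, 336 and 256 in the input (log2 fold change -0.96 ± 0.26, adjusted p = 0.0330). Rars aside, these calls lay near the threshold, with adjusted p from 0.0160 to 0.0330. Left out one at a time, each of the 9 libraries changed the number of synthetases called lower or left it at 5. The number was 0, 2 and 1 without Roquin IP 1, 2 and 3, 7, 4 and 5 without control IP 1, 2 and 3, and 3, 1 and 4 without input 1, 2 and 3. The log2 fold changes of the 5 genes stayed negative throughout, between -1.75 and -0.88.

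Among the mitochondrial genes none was called lower than the input. The lowest were Vars2 at -1.15 ± 0.46 (adjusted p = 0.153), Rars2 at -1.07 ± 0.50 (adjusted p = 0.218) and Sars2 at -0.77 ± 0.66 (adjusted p = 0.533). The values of Vars2 and Rars2 were below that of Nars, which passed the test, and Rars2 passed it without input 1 (log2 fold change -1.49, adjusted p = 0.0457). At an unadjusted p under 0.05, 12 synthetases were lower (32.4%, against 10.7%), of which 10 were cytosolic and the others were Vars2 and Rars2. The highest after Aars2 were Fars2 at 0.95 ± 0.39 (adjusted p = 0.162), Cars2 at 0.94 ± 0.73 (adjusted p = 0.488) and Nars2 at 0.73 ± 0.36 (adjusted p = 0.252). The median log2 fold change was -0.69 over the cytosolic genes and -0.02 over the mitochondrial genes, beside -0.01 over all genes tested. Without Lars2 the mitochondrial median was 0.05. The 8 synthetases of the complex, Kars among them, had a median of -0.76 with 3 called lower (37.5%). The 12 cytosolic genes outside the complex had -0.58 with 2 called lower (16.7%), beside 2.79% of all genes tested. With the replicate number as a block these counts were 4 of 8 and 5 of 12, beside 8.04% of all genes. Standard errors ran from 0.235 to 0.451 for the cytosolic and from 0.268 to 0.859 for the mitochondrial genes, so a change of the same size was harder to call in the mitochondrial class. The difference between compartments was not tested, since the genes of a class are not replicates. Libraries not overlapping the input were found for 10 lower (27.0%, against 14.3%) and 3 higher synthetases (8.11%, against 16.5%). The 10 were all cytosolic, and the 3 were Aars2, Nars2 and Fars2, all mitochondrial.

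**Figure D5:**
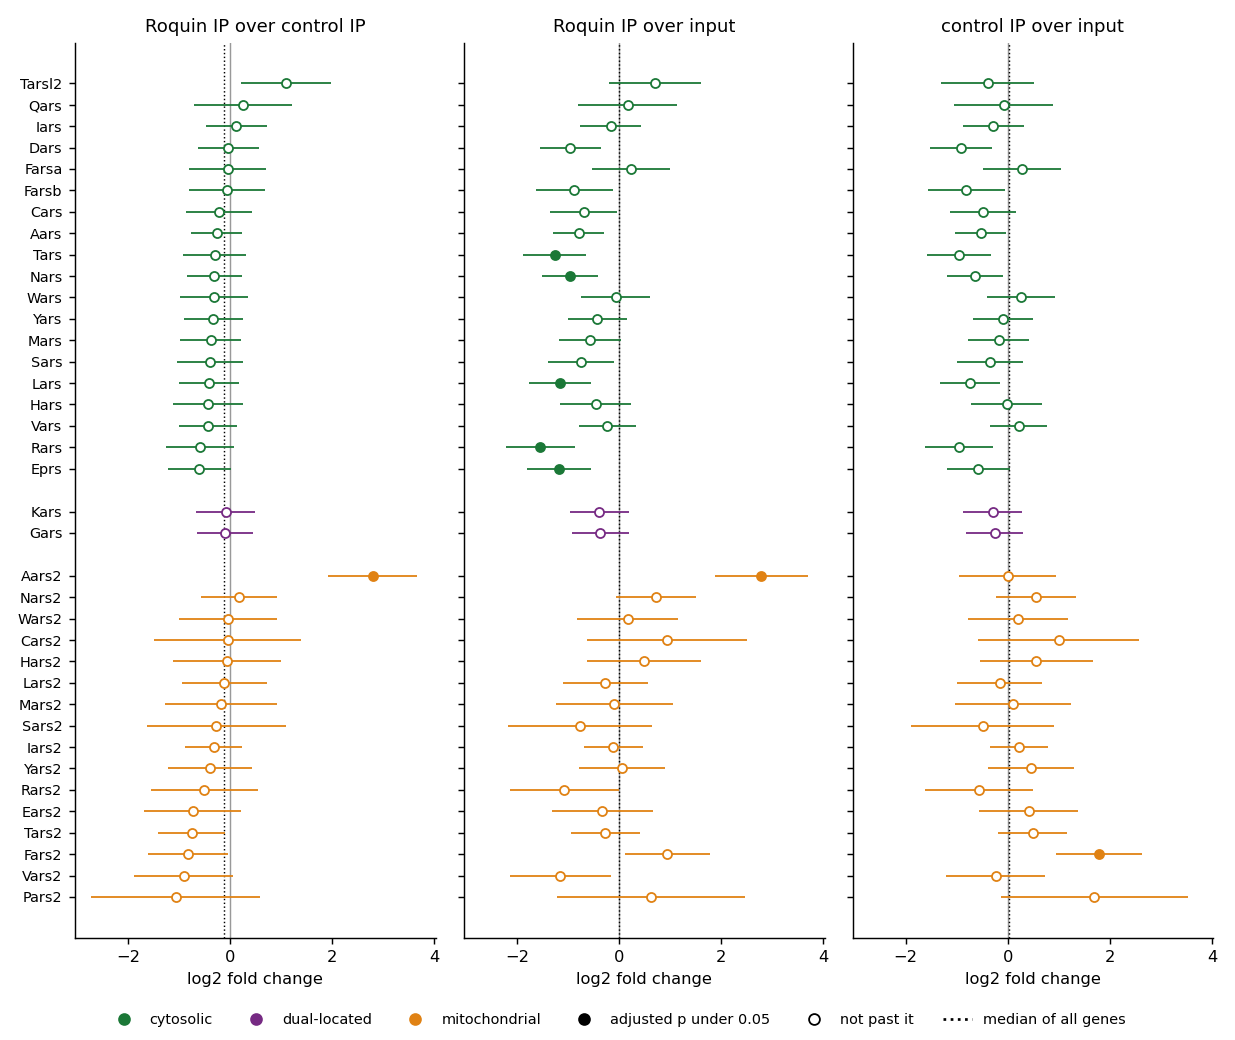
Log2 fold change of all 37 genes in the 3 comparisons, with 95% intervals, grouped by compartment and ordered by Roquin IP over control IP. Filled points passed an adjusted p of 0.05, and the dotted line is the median of all genes tested. Aars2 is far right in both Roquin IP panels, and 16 of 19 cytosolic genes lie left of the line in each of the 2 panels over the input.

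The beads alone were also set against the RNA they were given. Control IP over the input is a comparison that shares the input libraries with the one above. Its median log2 fold change was -0.39 for the cytosolic, 0.31 for the mitochondrial (0.41 without Lars2) and 0.02 for all genes. No synthetase was called lower (0 of 37, against 0.303% of all genes), with 7 at an unadjusted p under 0.05 (18.9%, against 9.53%), all cytosolic. DESeq2 called 3 lower (8.11%, against 4.19%). With the replicate number as a block 5 were lower (13.5%, against 5.78%), namely Rars, Tars, Dars, Lars and Nars. Their unblocked log2 fold changes ran from -0.96 to -0.64. All libraries were below the input for 6 synthetases (16.2%, against 10.8%), and above it for 2 (5.41%, against 12.2%), Nars2 and Fars2. DESeq2 split all calls as 405 higher and 401 lower, in place of 78 and 29, and library size alone as 57 and 10.

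Fars2, the mitochondrial phenylalanyl enzyme, was called higher in control IP over the input (1 of 37, 2.70%, against 0.815%). It had 39.9, 26.1 and 18.0 CPM in control IP, against 6.11, 8.70 and 9.42 in the input, while Roquin IP lay between at 17.6, 14.9 and 14.4. The log2 fold change was 1.78 ± 0.39 (adjusted p = 0.0469, or 0.0118 with the block). The call was lost when any of the 9 libraries was left out, with adjusted p from 0.0523 to 0.126 and log2 fold changes from 1.45 to 2.03. Fars2 overlaps Lyrm4 and Nrn1 on the opposite strand, and the sources used here do not say whether reads were counted by strand. Pars2 was next at 1.69 ± 0.85 (adjusted p = 0.281), from 42, 33 and 51 counts in control IP against 0, 6 and 10 in the input, followed by Cars2 at 0.99 ± 0.73 (adjusted p = 0.483) and Hars2 at 0.56 ± 0.52 (adjusted p = 0.590). The lowest were Rars at -0.96 ± 0.31 (adjusted p = 0.117), Tars at -0.96 ± 0.29 (adjusted p = 0.0935), Dars at -0.91 ± 0.28 (adjusted p = 0.0973) and Farsb at -0.81 ± 0.35 (adjusted p = 0.213). The log2 fold change in control IP over the input was higher at higher transcript GC content across all tested genes that matched the annotation (r = 0.432, 8754 genes), and r was 0.278 across the 37 synthetases. Both are descriptions of genes measured in the same libraries. The median GC content was 50.4% in the cytosolic and 48.3% in the mitochondrial genes.

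A ratio within each library needs no scaling factor. The summed counts of the cytosolic genes over those of the mitochondrial genes, without Lars2, Gars and Kars, were 8.22, 7.60 and 5.63 in Roquin IP, against 7.17, 7.71 and 6.99 in control IP and 13.9, 13.3 and 11.03 in input. The means were 7.15 ± 1.35 for Roquin IP, 7.29 ± 0.372 for control IP and 12.7 ± 1.5 for the input (SD, n = 3 in each group). Both kinds of IP lay below every input library, and they overlapped each other. Without Aars2 the means were 8.38 ± 1.65 for Roquin IP, 7.43 ± 0.4 for control IP and 13.02 ± 1.45 for the input. With Lars2 counted, the ratio fell under 0.0101 in every library, so that row alone sets any total over the mitochondrial enzymes.

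Cytosolic and mitochondrial enzymes for the same amino acid could be set side by side for 13 pairs. The mitochondrial gene had the higher log2 fold change in 9 of 13 pairs in Roquin IP over control IP, in 11 of 13 in Roquin IP over the input and in 10 of 13 in control IP over the input. Without the leucine pair, which holds Lars2, the counts were 8, 10 and 9 of 12 pairs. Over those 12 pairs the median differences were 0.14, 0.47 and 0.51. The alanine pair stood apart, with Aars2 above Aars by 3.05 on the log2 scale in Roquin IP over control IP. The next pair in that comparison, Nars2 and Nars, differed by 0.49, and Vars2 was 0.47 below Vars.

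The dual-located genes did not pass the test over control IP. Gars had 149, 206 and 159 CPM in Roquin IP, against 169, 213 and 172 in control IP and 261, 208 and 195 in input. The log2 fold change of Gars was -0.11 ± 0.26 in Roquin IP over control IP (adjusted p = 0.925), and that of Kars was -0.09 ± 0.27 (adjusted p = 0.935). By structural class, class I genes had a median log2 fold change of -0.33 with 0 of 19 called, and class II genes had -0.18 with Aars2 called among 18.

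Other genes around tRNA charging were set beside the same background. Of 14 tested genes for synthetase cofactors, proofreading and tRNA end processing, none passed over control IP, where 3.76% of all genes were higher. Over the input 1 of the 14 was called higher (7.14%, against 5.45% of all genes). It was Mtfmt, which formylates the mitochondrial initiator methionyl-tRNA (log2 fold change 2.47 ± 0.58, adjusted p = 0.0179). Without Roquin IP 1 that call was lost (log2 fold change 2.12, adjusted p = 0.0845). Mtfmt stood at 1.38 ± 0.54 over control IP (adjusted p = 0.325), the highest of that list, and Aarsd1, a cytosolic editing factor for mischarged alanyl-tRNA, was lowest at -0.80 ± 0.36 (adjusted p = 0.460). Of 17 ATF4-linked genes 1 was called higher over control IP (5.88%, against 3.76% of all genes tested), or 3 with the block (Ddit4 and Chac1 added), where the share of all genes was 5.52%. The gene called without the block was Mthfd2, a mitochondrial enzyme of folate metabolism, at 3.14 ± 0.29 (adjusted p = 7.63e-06), and Phgdh, of serine synthesis, was lowest at -0.63 ± 0.29 (adjusted p = 0.481). Over the input Mthfd2 stood at 3.71 ± 0.30 (adjusted p = 2.35e-06), and Chac1, a glutathione-degrading enzyme, was also higher at 2.12 ± 0.60 (adjusted p = 0.0445). The Chac1 call was lost without Roquin IP 1 or 2, control IP 2 or any of the 3 input libraries, with adjusted p from 0.0533 to 0.198 and log2 fold changes of 1.61 or more. Over the input 2 of the 17 were called higher (11.8%, against 5.45%). With the block 5 were higher, against 9.99% of all genes, and 1 was lower, against 8.04%. None of 9 mitochondrial translation factors passed in any comparison, where at most 5.45% of all genes were called higher and at most 2.79% lower. With the block Gfm1 was lower than the input (log2 fold change -0.89, adjusted p = 0.0162), as were 8.04% of all genes.

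Some rows of the family carry a limit from the annotation. On the genome 11 of 37 synthetase genes overlap another gene with a row in the table under its GENCODE symbol. Aars and Tarsl2 overlap theirs on the same strand, and the rest on the opposite strand, Hars and Hars2 with each other. Apart from Tm2d3 none of these partners passed the test over control IP.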

How the data were processed

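Counts per gene in 9 libraries were taken from the authors' deposited table, where, per the file headers, they are numbers of reads. That table also holds the authors' ratio of Roquin IP to control IP, headed log2 but deposited as a linear ratio or fold, and a p-value that the sources used here do not describe as adjusted or not. The submitters' processing notes name CASAVA 1.8.2, BWA and DESeq 1.8.3. The genome build, the annotation and any use of strand were not given in the sources used here. Entries without a symbol (7480) were empty.

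All 9 libraries were fitted together with edgeR 4.0.16 (quasi-likelihood F test, TMM factors, group as the only term) in R 4.3.3, on the 9567 genes that filterByExpr kept at a minimum count of 10. Calls used a Benjamini-Hochberg adjusted p under 0.05 over all genes tested. The members and lists were chosen with earlier results of these data known. Within a comparison, all called members and the 4 highest and 4 lowest were named; Tm2d3 and, over the input, Vars2, Rars2 and Sars2 were chosen after their values were seen. The labels do not say what a replicate number marks, so the replicate block was kept as an alternative. Over 9567 genes, deviations from group means correlated at 0.152 to 0.580 in 9 same-numbered pairs. In 18 other pairs they correlated at -0.433 to -0.0185. Libraries with the same number thus deviated together, and the main fit leaves such pairing out. Alternatives were DESeq2 1.42.0, RLE factors, library size alone, Lars2 left out of the library sizes, no filter, the replicate block, 6 libraries only, and each library left out.

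Symbols were matched to GENCODE M21 (GRCm38) transcripts, all 37 members and 91.5% of tested genes. Shared stretches of at least 50 bases at 94% identity were found with BLAST 2.17.0 (blastn) in Python 3.11.15. Between replicates the chi-square per degree of freedom showed no duplicated library. A count of 0 allows 3 counts. The binomial intervals of the Lars2 share cover counting error only, and they take reads as independent, which PCR copies are not. The intervals of log2 fold changes come from the edgeR fit and include the spread between replicates.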

Additional observations from a re-analysis of the deposited data

How the results depend on the processing

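Aars2 passed the test over control IP and over the input under all 16 alternatives, with log2 fold changes from 1.96 to 2.92 and from 2.05 to 3.20. Over the recomputed log2 fold changes of named genes, 509 kept their direction and their side of the threshold, 39 lost the call, 14 gained it and 14 changed sign. Library size alone moved the median of all genes to -0.96 in Roquin IP over control IP, -0.76 over the input and 0.11 in control IP over the input. There the class medians, with Lars2 among the mitochondrial genes, were -1.15 (cytosolic) and -1.12 (mitochondrial) over control IP, with 24 synthetases lower. Over the input they were -1.48 and -0.71, with 22 synthetases lower. All calls were then 257 higher and 3708 lower over control IP, 259 and 2668 over the input, and 57 and 10 in control IP over the input. Relative to the median of all genes, the cytosolic median over control IP was -0.19 with either scaling. Sign changed for Qars (-0.61) and Nars2 (-0.66) over control IP, for Nars2 over the input (-0.029) and for Aars2 in control IP over the input (0.096, 0.021 without a filter and 0.0049 with the replicate block), none of them called.

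Genes called lower over control IP numbered 6 with DESeq2, 21 without a filter and 11 with the replicate block. In Roquin IP over the input, genes called lower numbered 542 with DESeq2, 416 without a filter and 769 with the block, and 956 were higher with the block, where 9 synthetases were lower. In control IP over the input, genes called higher and lower numbered 405 and 401 with DESeq2, 335 and 229 without a filter, 636 and 553 with the block, and 2 and 1 with only the 6 libraries compared. The 6-library fit called 0 synthetases higher there, and 3 were lower with DESeq2 and 5 with the block. Dars, Tars and Rars gained their calls in control IP over the input with DESeq2 and with the block. With the block 4 of the 17 ATF4-linked genes were called higher there, in place of 0, beside 6.65% of all genes. Apart from the calls named here and above, the replicate block changed no call of a synthetase.

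Leaving out 1 library at a time gave 0 to 3 genes lower over control IP. The mitochondrial median there, with Lars2 included, ran from -0.60 without Roquin IP 3 to -0.21 without Roquin IP 2. In Roquin IP over the input it gave 298 to 679 genes higher, 30 to 452 lower, and 0 to 7 synthetases lower. In control IP over the input it gave 0 to 185 genes higher, 0 to 86 lower and 0 synthetases higher. Signs changed within -0.38 to 0.093 for Lars2 and -0.21 to 0.65 for Qars over control IP, and in control IP over the input within -0.37 to 0.037 for Lars2 and -0.33 to 0.36 for Aars2. The cause of these changes was not tested.

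As a share of all synthetase reads, Lars2 held 99.23% in Roquin IP, 99.16% for control IP and 99.06% for the input. The cytosolic to mitochondrial ratio was 0.005974 in Roquin IP, 0.006583 for control IP and 0.007922 for the input with Lars2 counted, and 3.399, 3.647 and 4.966 with Gars and Kars counted as mitochondrial. As a ratio of geometric means it was 6.04 in Roquin IP, 5.77 for control IP and 10.88 for the input. Depth limits the mitochondrial genes most: Aars2, Cars2, Hars2, Pars2 and Sars2 had 10 or fewer counts in at least 1 input library.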
